A study of Mus musculus with 12 samples.

Results

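The genes examined are 9 genes, 8 of coagulation and fibrinolysis and the gene of P-selectin, measured in mouse 4T1 mammary carcinoma cells: *F3*, *F5*, *Thbd*, *Tfpi*, *Plau*, *Plat*, *Plaur*, *Serpinb2* and *Selp*. They were taken by symbol and not by their measured values, out of 35521 genes with a transcript in the tables. Of the 9 genes, 7 passed the filter on low counts, as did 12555 genes in all, and *Thbd* and *Serpinb2* did not. 4T1 is an epithelial tumor line from BALB/c mice, and all 12 libraries came from this line. In 4 libraries (group 4T1_MDSC_T, here Tu-primed) the cells had shared medium for 48 hours, across a Transwell membrane with 0.4 µm pores, with Gr1+CD11b+ cells taken from 4T1 tumors. In 4 libraries (4T1_MDSC_S, here Spl-primed) the Gr1+CD11b+ cells came from the spleen of 4T1 tumor-bearing mice, and 4 libraries (4T1) held parental 4T1 cells without such cells. The Gr1+ cells were collected by magnetic columns at day 21 after tumor cell injection according to the sample labels, while the study's coculture methods give a later day. The labels number the replicates but do not say whether they were separate cultures or separate donor mice, so the p-values below measure the spread between libraries, which may be technical. The labels also do not say whether the parental cells were kept under an empty Transwell insert.

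Coagulation on a cell surface starts when tissue factor, the product of *F3*, binds factor VII, and it is amplified when activated factor V, the product of *F5*, serves activated factor X as the cofactor that turns prothrombin into thrombin. Thrombomodulin (*Thbd*) redirects thrombin toward the activation of protein C, and tissue factor pathway inhibitor (*Tfpi*) blocks the first step. Fibrin is cleared by plasmin, which the urokinase (*Plau*) and tissue-type (*Plat*) activators cut from plasminogen. The urokinase receptor (*Plaur*) holds urokinase on the membrane, and *Serpinb2* encodes an inhibitor of both activators. P-selectin (*Selp*) is best known from activated platelets and endothelium, where it binds glycoprotein ligands of leukocytes, and mammary carcinoma cells are known for tissue factor and for the urokinase system.

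*F5* and *Selp*, which lie side by side on chromosome 1, were the members that were higher in Tu-primed than in Spl-primed cells, by 7.07-fold and 3.49-fold. *F3*, *Tfpi*, *Plau* and *Plat* were moderately higher in both primed groups than in parental cells, by 1.25-fold to 1.68-fold, and did not differ between the primed groups beyond the test's threshold. Without parental replicates 3 and 4, calls were lost for *F3* and *Tfpi* in Tu-primed and for *Tfpi* and *Plat* in Spl-primed cells. Both *Tfpi* calls were also lost with offsets for effective transcript length. *Plaur* was the most abundant member in each group and was called in no comparison. *Thbd* was listed at 0 in all 12 libraries. Both *F5* and *Selp* stand on a list of genes that the study chose partly on these libraries, and *F5* also in its signature of Tu-primed cells, so those lists are not independent evidence of their direction.

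Differences were tested by quasi-likelihood in edgeR, and a gene was called where its p, adjusted over the 12555 tested genes, was under 0.05. Between Tu-primed and Spl-primed cells, 2 of the 7 tested members were called higher and 0 lower, against 4.66% of all tested genes called higher, 2.97% lower and 7.63% in either direction. Against parental cells, 6 members were called higher and 0 lower in Tu-primed cells, where 31.2% of all tested genes were called higher, 28% lower and 59.2% in either direction. In Spl-primed against parental cells, 4 members were called higher and 0 lower, beside 25.7%, 22.5% and 48.2% of all tested genes. The CPM ranges of the groups did not overlap for 3 members between Tu-primed and Spl-primed cells (17% of tested genes), for 5 between Tu-primed and parental cells (55.5%) and for 2 between Spl-primed and parental cells (39.6%). The median log2 fold change of the 7 members was 0.16, 0.59 and 0.45 in these 3 comparisons, beside -0.01, 0.02 and 0.02 over all tested genes. The comparisons share libraries, so they are not independent of each other.

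Libraries held between 24566183 and 31637755 estimated reads, with a median of 27277534. Levels were expressed as CPM, counts divided by the library's total and brought to a common scale with TMM factors, which lay between 0.88 and 1.05, with the lowest in parental replicates 3 and 4. The chi-square per degree of freedom between 2 libraries of a group ranged from 3.50 to 64.6. It was highest between parental replicate 4 and parental replicates 1 and 2, and Spl-primed replicate 3 stood apart from the other Spl-primed libraries with 31.8 to 39.6. Parental replicates 3 and 4 were also the lowest parental libraries for *Tfpi*, *Plau*, *Plat* and *Plaur*. Results against parental cells were therefore also computed without both of them, an alternative chosen after seeing the data. Those values are given below for the 7 tested members and, for the other genes examined in the alternatives, where a call was lost. No alternative was examined gene by gene for *Kifap3*, *Gcnt1*, *Podxl*, *Glg1*, *F13a1*, *Vwf*, *Lman1* or the cell type markers. For these genes, the absence of a reported loss does not mean that a call was kept.

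**Figure D1:**
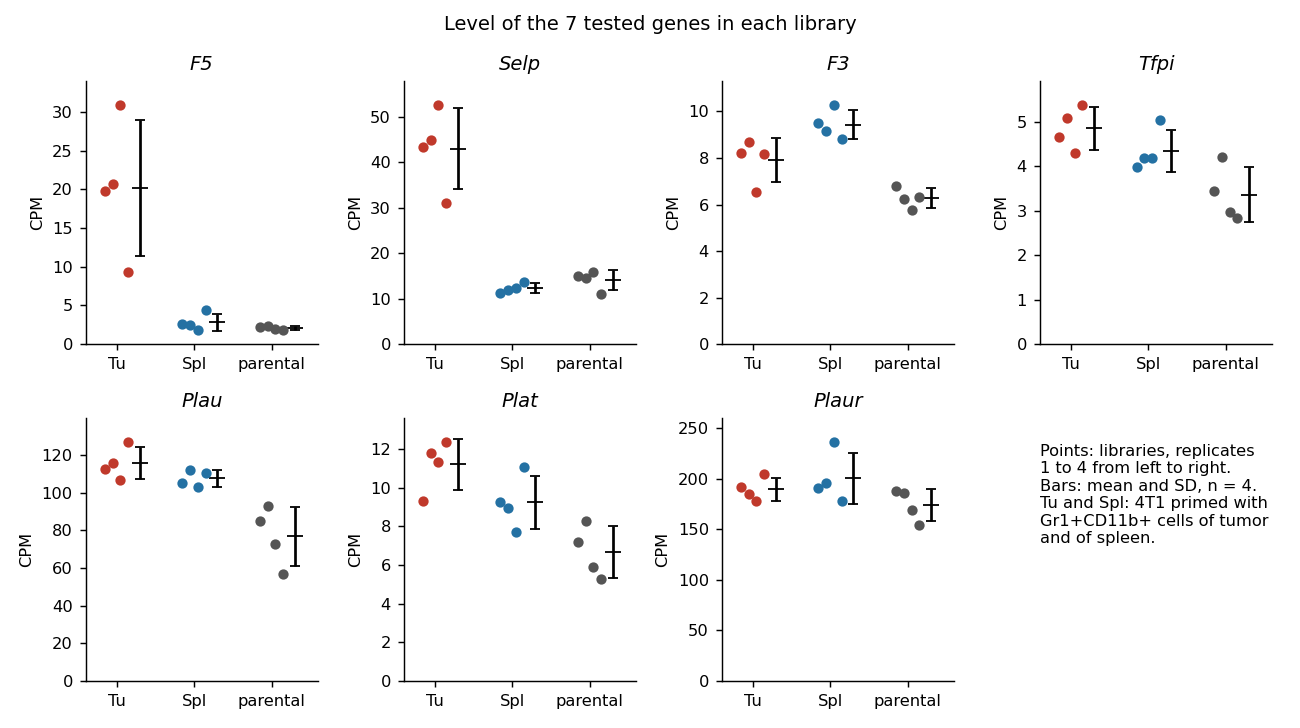
CPM (y axis, from 0) of the 7 tested genes in each library, by group (x axis), with bars for the mean and SD of 4 libraries. The 4 Tu-primed libraries lie above all others for *F5* (9.30 CPM or more) and *Selp* (31.1 CPM or more), while the groups overlap for *Plaur*.

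Among the procoagulant genes, *F5* had the largest difference. *F5* was at 19.8, 20.7, 30.9 and 9.30 CPM in Tu-primed replicates 1 to 4, and at 2.57, 2.51, 1.89 and 4.42 CPM in the Spl-primed replicates. Parental cells had 2.19, 2.39, 1.93 and 1.84 CPM. The lowest Tu-primed library thus lay above the highest library of either other group, although Tu-primed libraries spread over a wide range. The log2 fold change of *F5* was 2.82 (SE 0.31, 95% interval 2.15 to 3.49, edgeR adjusted p = 7.64e-05) for Tu-primed against Spl-primed cells and 3.27 (SE 0.33, 95% interval 2.56 to 3.98, adjusted p = 3.07e-06) against parental cells. Between Spl-primed and parental cells it was 0.45 (95% interval -0.36 to 1.25, adjusted p = 0.343), and the groups overlapped. That value was 0.16 without Spl-primed replicate 4, the highest Spl-primed library (adjusted p = 0.767). *F5* differed from parental replicates 1 and 2 alone by 3.15 (adjusted p = 0.000285) in Tu-primed and 0.31 (adjusted p = 0.674) in Spl-primed cells. The counts behind the *F5* values were 268 to 884 in Tu-primed, 52 to 127 in Spl-primed and 46 to 65 in parental libraries. In bulk RNA, more cells with the transcript and more transcript per cell cannot be told apart.

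*F3*, the gene of tissue factor, had another order of groups. *F3* lay at 8.20, 8.70, 6.54 and 8.16 CPM in Tu-primed replicates 1 to 4 and at 9.51, 9.15, 10.3 and 8.80 CPM in the Spl-primed ones. In parental cells it was at 6.81, 6.22, 5.79 and 6.31 CPM. All Spl-primed libraries were thus above all others, and Tu-primed replicate 3 fell within the parental range. *F3* had a log2 fold change of 0.58 (SE 0.10, edgeR adjusted p = 0.000313) for Spl-primed and 0.33 (SE 0.10, adjusted p = 0.0113) for Tu-primed against parental cells. With parental replicates 3 and 4 left out these became 0.52 (adjusted p = 0.00716) and 0.28 (adjusted p = 0.0743), so the Tu-primed call was lost. Between the primed groups *F3* differed by -0.26 (95% interval -0.46 to -0.05), with adjusted p = 0.121.

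The anticoagulant members were low. *Tfpi* lay at 4.65, 5.09, 4.30 and 5.38 CPM in Tu-primed, at 3.99, 4.18, 4.18 and 5.04 CPM in Spl-primed and at 3.44, 4.20, 2.98 and 2.84 CPM in parental replicates. Tu-primed libraries were all above the parental ones, and Spl-primed libraries overlapped both. *Tfpi* had a log2 fold change of 0.53 (SE 0.14, edgeR adjusted p = 0.00503) in Tu-primed and 0.37 (SE 0.14, adjusted p = 0.0431) in Spl-primed against parental cells. Both calls were lost with offsets for effective transcript length (adjusted p = 0.161 and 0.558) and without parental replicates 3 and 4 (adjusted p = 0.0681 and 0.381). The Spl-primed call was also lost without Tu-primed replicate 1 or 2, Spl-primed replicate 2, 3 or 4, or parental replicate 1, 3 or 4 (adjusted p = 0.0539 to 0.134). *Tfpi* had 10 transcripts listed. Of these, *Tfpi*-201 (1492 bases) held 40.5% and *Tfpi*-205 (2962 bases) 29.0% of the gene's TPM on average. The share of *Tfpi*-201 ranged from 0% to 60.1% among Tu-primed libraries alone. *Thbd* had a count of 0 in every library, which allows up to 0.0941 to 0.126 CPM depending on the library. That limit covers counting error only.

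Plasminogen activation was represented by *Plau*, *Plat*, *Plaur* and *Serpinb2*. *Plau* was at 112.5, 115.9, 106.7 and 127.1 CPM in Tu-primed replicates 1 to 4 and at 105.0, 111.9, 102.8 and 110.2 CPM in Spl-primed ones. Parental cells had 85.0, 92.8, 72.6 and 56.8 CPM, all below both primed groups, which overlapped each other. The log2 fold change of *Plau* was 0.59 (SE 0.11, edgeR adjusted p = 0.000575) in Tu-primed and 0.48 (SE 0.11, adjusted p = 0.00334) in Spl-primed cells. Without parental replicates 3 and 4 it was 0.39 (adjusted p = 0.00156) and 0.26 (adjusted p = 0.0198). Tu-primed and Spl-primed cells differed in *Plau* by 0.10 (95% interval -0.14 to 0.35, adjusted p = 0.638).

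*Plat* showed a similar order at a lower level. It lay at 9.33, 11.8, 11.4 and 12.4 CPM in Tu-primed, at 9.26, 8.97, 7.73 and 11.1 CPM in Spl-primed and at 7.21, 8.28, 5.91 and 5.28 CPM in parental replicates. Tu-primed libraries were all above the parental ones, and Spl-primed libraries overlapped both groups. *Plat* had a log2 fold change of 0.75 (SE 0.14, edgeR adjusted p = 0.000514) in Tu-primed and 0.47 (SE 0.14, adjusted p = 0.0152) in Spl-primed against parental cells. Without parental replicates 3 and 4 it was 0.55 (adjusted p = 0.0112) and 0.25 (adjusted p = 0.221), and without Spl-primed replicate 4 the Spl-primed value was 0.38 (adjusted p = 0.0570). Between the primed groups *Plat* differed by 0.28 (95% interval -0.02 to 0.57, adjusted p = 0.257).

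The urokinase receptor gene *Plaur* ranged from 178 to 205 CPM in Tu-primed, from 178 to 237 CPM in Spl-primed and from 154 to 188 CPM in parental libraries. All groups overlapped, with the highest value in Spl-primed replicate 3. The log2 fold change of *Plaur* was -0.08 between the primed groups (95% interval -0.27 to 0.11, edgeR adjusted p = 0.647). It was 0.12 in Tu-primed (95% interval -0.06 to 0.31, adjusted p = 0.240) and 0.20 in Spl-primed cells (95% interval 0.01 to 0.39, adjusted p = 0.0708) against parental cells. The Spl-primed value was 0.25 without Spl-primed replicate 4, which was called (adjusted p = 0.0380), and 0.10 without Spl-primed replicate 3 (adjusted p = 0.262). *Plaur* differed from parental replicates 1 and 2 alone by 0.03 (adjusted p = 0.818) in Tu-primed and 0.09 (adjusted p = 0.508) in Spl-primed cells. *Serpinb2*, the inhibitor gene, had between 0 and 2 counts in every library, under the 3 counts that a count of 0 allows, so no fold change is given.

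*Selp*, the gene of P-selectin, moved in the same direction as *F5*. *Selp* was at 43.3, 44.9, 52.6 and 31.1 CPM in Tu-primed replicates 1 to 4 and at 11.2, 11.9, 12.4 and 13.7 CPM in the Spl-primed replicates. Parental libraries had 15.0, 14.6, 15.9 and 11.03 CPM. The 4 Tu-primed libraries lay above all 8 others, and Spl-primed and parental libraries overlapped. The log2 fold change of *Selp* was 1.80 (SE 0.14, 95% interval 1.49 to 2.11, edgeR adjusted p = 9.73e-06) for Tu-primed against Spl-primed cells, rank 7 by p of 12555 genes. Against parental cells it was 1.60 (SE 0.14, 95% interval 1.29 to 1.91, adjusted p = 1.18e-06). Spl-primed and parental cells differed by -0.20 (95% interval -0.52 to 0.12, adjusted p = 0.279). The differences from parental cells were 1.54 (adjusted p = 5.55e-05) and -0.28 (adjusted p = 0.229) without parental replicates 3 and 4. Within the Tu-primed group, replicate 3 had the highest and replicate 4 the lowest level of both *F5* and *Selp*.

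**Figure D2:**
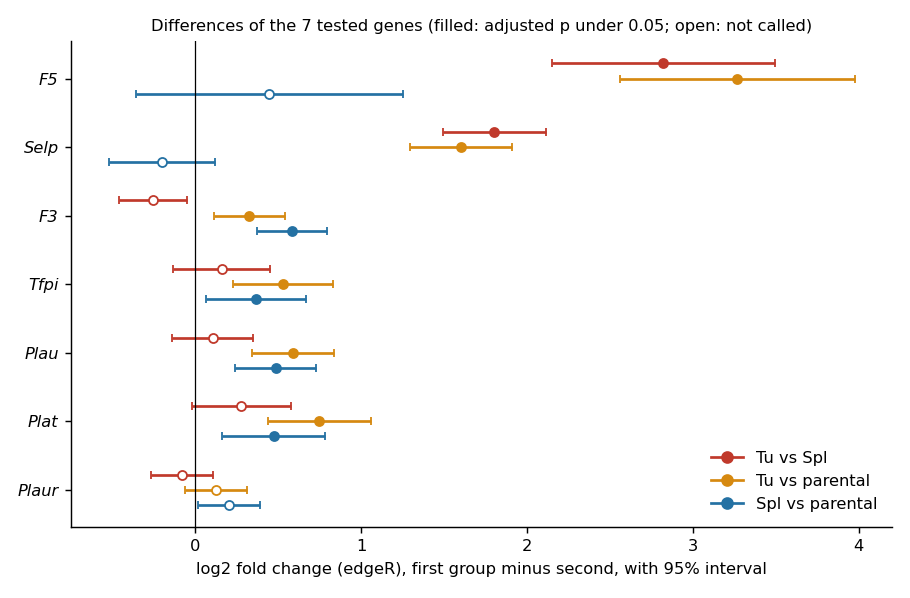
Log2 fold changes (x axis) of the 7 tested genes (y axis) with 95% intervals from edgeR, in 3 comparisons, each as the first named group minus the second. *F5* (2.82) and *Selp* (1.80) are the filled points for Tu-primed against Spl-primed cells, and *Plaur* has no filled point.

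*Selp* and *F5* are adjacent genes on the same strand. In GRCm38, *Selp* spans chr1:164115264-164150026 and *F5* chr1:164151838-164220277, both on the plus strand, with 1811 bases between them. *Sele*, the gene of endothelial E-selectin, lies before *Selp* on the same strand, at chr1:164048234-164057677. Of 16 other annotated genes described here within 250 kb of the interval that spans *Selp* and *F5*, 10 were tested. Between Tu-primed and Spl-primed cells, 1 of these 10 was called higher, namely *Sele*, 1 was called lower and 8 were not called. Of all tested genes, 4.66% were called higher and 2.97% lower in this comparison.

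*Sele* was at 30.6, 27.8, 30.5 and 21.8 CPM in Tu-primed, at 12.2, 11.6, 10.7 and 12.6 CPM in Spl-primed and at 11.6, 12.6, 10.8 and 9.35 CPM in parental replicates. The Tu-primed libraries lay above all others, and the others overlapped. Its log2 fold change was 1.23 (SE 0.11, edgeR adjusted p = 1.71e-05) against Spl-primed and 1.32 (SE 0.11, adjusted p = 8.29e-07) against parental cells.

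Thus *Sele*, *Selp* and *F5*, named in their order along the plus strand, were higher in Tu-primed than in Spl-primed cells by 1.23, 1.80 and 2.82 on the log2 scale. *Mettl18*, before *Sele*, had a log2 fold change of 0.13 (edgeR adjusted p = 0.642), and *Slc19a2*, a thiamine transporter gene after *F5*, had 0.01 (adjusted p = 0.976). *Atp1b1*, a subunit gene of the sodium pump, was called lower with -0.46 (adjusted p = 0.0302), a call lost without Tu-primed replicate 2 or 3 or Spl-primed replicate 1 or 3 (adjusted p = 0.082 to 0.110). In all, it was lost in 9 of 27 alternatives. The highest adjusted p was 0.208, with effective length offsets and a replicate block together. Against parental cells, 3 of the 10 neighbours were called higher in Tu-primed cells (*Sele*, *Scyl3* with 0.41 and *BC055324* with 0.43) and 1 lower (*Atp1b1* with -0.38, lost with effective length offsets at -0.18, adjusted p = 0.237, and without parental replicate 1, adjusted p = 0.0505). Spl-primed and parental cells differed in none of *Sele*, *Selp* and *F5* past the threshold, whereas *Scyl3* (0.36, adjusted p = 0.000447) and *BC055324* (0.33, adjusted p = 0.00033) were higher and *Kifap3* (-0.20, adjusted p = 0.00458) lower in Spl-primed cells. *Gm16587* and *Gm16548*, annotated on the opposite strand across *Selp* and the start of *F5*, have no transcript in the tables, and the strand setting of the counting is not given in the sources used here. *Gm16588*, a pseudogene within *F5*, had at most 14 counts in a library.

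**Figure D3:**
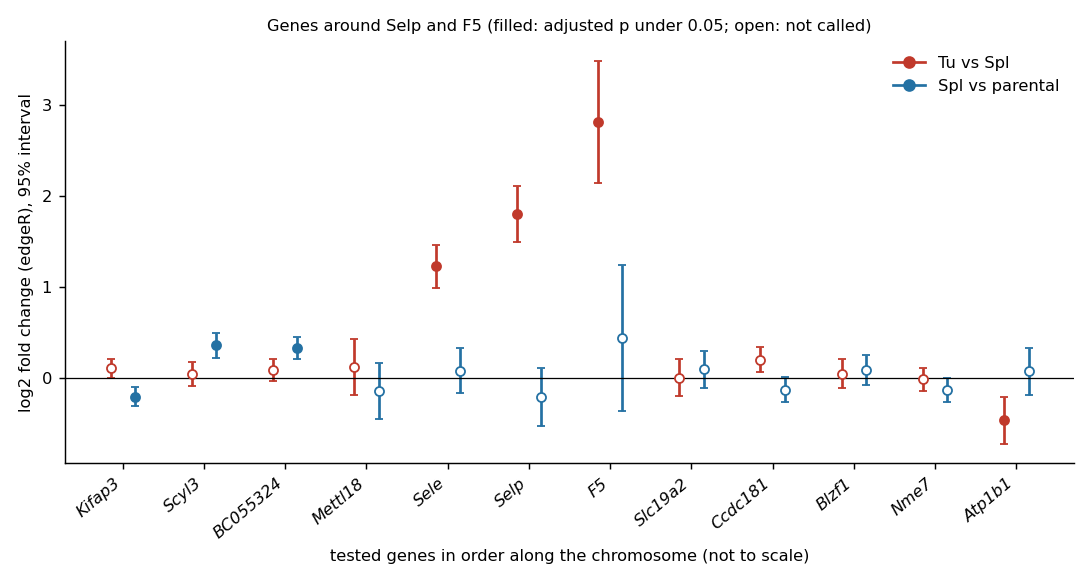
Log2 fold changes (y axis) with 95% intervals of *Selp*, *F5* and 10 tested genes around them, in their order along the chromosome (x axis, not to scale), in red for Tu-primed against Spl-primed and in blue for Spl-primed against parental cells. For Tu-primed against Spl-primed cells, *Sele* (1.23), *Selp* (1.80) and *F5* (2.82) stand above the other genes plotted, and *Atp1b1* (-0.46) lies below 0.

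The stretches before the start sites of *Sele*, *Selp* and *F5* are printed because those genes were higher in the same libraries. They are the 250 bases before the RefSeq start on the plus strand of GRCm38.p6, at chr1:164047984-164048233 (*Sele*), chr1:164115014-164115263 (*Selp*) and chr1:164151585-164151834 (*F5*), written 5′ to 3′. Capitals mark each match, on either strand, to 1 of 5 motifs: the STAT-binding GAS element TTCNNNGAA, the interferon-response core GAAANNGAA, the AP-1 element TGANTCA, the GC box GGGCGG and the TATA element TATAAA.
Sele: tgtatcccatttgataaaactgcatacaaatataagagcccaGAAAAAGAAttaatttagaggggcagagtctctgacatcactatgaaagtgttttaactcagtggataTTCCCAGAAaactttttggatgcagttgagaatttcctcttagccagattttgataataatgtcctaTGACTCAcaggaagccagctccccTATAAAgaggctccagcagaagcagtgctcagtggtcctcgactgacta
Selp: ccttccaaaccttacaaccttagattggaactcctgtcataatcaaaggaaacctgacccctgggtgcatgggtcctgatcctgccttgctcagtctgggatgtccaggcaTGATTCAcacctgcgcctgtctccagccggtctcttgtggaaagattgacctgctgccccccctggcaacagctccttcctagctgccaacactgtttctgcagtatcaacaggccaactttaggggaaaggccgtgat
F5: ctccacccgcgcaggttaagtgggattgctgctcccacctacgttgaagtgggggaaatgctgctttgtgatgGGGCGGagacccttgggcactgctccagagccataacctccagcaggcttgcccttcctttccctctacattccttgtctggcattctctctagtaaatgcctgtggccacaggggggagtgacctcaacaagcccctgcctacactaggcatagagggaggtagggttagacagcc
*Sele* held a GAS match 140 bases before its start, an interferon-response core at 208, an AP-1 match at 73 and a TATA match at 49. *Selp* held an AP-1 match 139 bases before its start and, from base 10 of its transcript, outside the stretch printed, the interferon-response core match GAAAGCGAA. *F5* held a GC box 177 bases before its start. No match overlapped another. Of 32851 RefSeq promoters of 300 bases, 8.30% held GAS, 8.56% the interferon-response core, 7.81% AP-1, 35.7% the GC box and 13.6% TATA on either strand. No motif was thus found in all 3 stretches, and a match is a run of letters and not a bound site. Of the 9 members, 6 had a promoter in that table. *Plau*, *Plat* and *Thbd* were not matched.

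Other genes of the same systems were taken from a list of 61 genes, of which 27 were tested. Between Tu-primed and Spl-primed cells, 4 of the 27 (14.8%, against 4.66% of all tested genes) were called higher and 0 lower, with a median log2 fold change of 0.05. Besides *Sele*, these were *Pros1*, *Serpine2* and *Cd24a*. *Pros1* encodes protein S, the cofactor of activated protein C, and lay at 19.6, 19.1, 23.8 and 13.7 CPM in Tu-primed replicates against 8.03, 6.79, 7.66 and 8.80 CPM in Spl-primed and 7.58, 7.29, 5.58 and 4.40 CPM in parental ones. The Tu-primed libraries did not overlap the others. Its log2 fold change was 1.28 (SE 0.17, edgeR adjusted p = 0.000293) against Spl-primed and 1.61 (SE 0.18, adjusted p = 5.71e-06) against parental cells. *Serpine2*, a protease inhibitor gene that acts on thrombin and urokinase, was at 953 ± 69.9 CPM (SD, n = 4) in Tu-primed, 700 ± 31.4 in Spl-primed and 616 ± 47.4 in parental cells. Its log2 fold change was 0.44 (adjusted p = 0.000874) and 0.63 (adjusted p = 5.23e-06). *Cd24a*, which encodes a glycoprotein that P-selectin can bind, was higher than in Spl-primed cells by 0.23 (adjusted p = 0.0202) but not than in parental cells (0.02, adjusted p = 0.741), and the first call was lost without Tu-primed replicate 1, 2 or 3 or Spl-primed replicate 2 or 4 (adjusted p = 0.0537 to 0.0824). In Spl-primed against parental cells *Cd24a* was called lower, by -0.25 to -0.17 over the alternatives. That call was kept whichever single library was left out.

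In Tu-primed against parental cells, 10 of the 27 were called higher and 5 lower (median 0.08), and in Spl-primed against parental cells 7 higher and 8 lower (median 0.03). The 15 calls are 55.6% of the 27 genes in either comparison, near the 59.2% and 48.2% of all tested genes. The list of coagulation factors and of genes for their export and vitamin K-dependent modification had 8 tested genes, of which 3 encode factors (*F8*, *F13a1* and *Vwf*). Of the 8, 5 (62.5%) were called higher in Tu-primed and 3 (37.5%) in Spl-primed against parental cells, beside 31.2% and 25.7% of all tested genes, and 3 of the 5 encode no factor (*Lman1*, *Mcfd2* and *Ggcx*). The Tu-primed calls of *F13a1* (0.28, edgeR adjusted p = 0.0491, groups overlapping) and *Vwf* (1.01, adjusted p = 0.0482, at 0.559 CPM) lay just under the threshold. *Mcfd2*, whose product helps to export factors V and VIII, was higher by 0.51 (edgeR adjusted p = 3.89e-06) and 0.39 (adjusted p = 6.64e-05). *Ggcx*, the vitamin K-dependent carboxylase gene, was higher by 0.46 (adjusted p = 8.03e-05) and 0.42 (adjusted p = 0.000346), and by 0.76 and 0.77 with effective length offsets. *Anxa5*, which encodes a phospholipid-binding anticoagulant protein, was lower by -0.37 (adjusted p = 4.91e-05) and -0.23 (adjusted p = 0.00352). The endothelial protein C receptor gene *Procr* was called higher only in Spl-primed cells (0.19, adjusted p = 0.0439), with 0.11 (adjusted p = 0.198) in Tu-primed cells and a difference of -0.08 (adjusted p = 0.576) between them. Its call was lost without Spl-primed replicate 3 (0.10, adjusted p = 0.187), without 6 of the other libraries, with effective length offsets (adjusted p = 0.0577) and without parental replicates 3 and 4 (adjusted p = 0.0867).

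Of the 8 tested genes of the plasminogen system, 1 was called higher and 2 lower in Tu-primed, and 1 higher and 3 lower in Spl-primed against parental cells. These are 37.5% and 50% of the 8, beside 59.2% and 48.2% of all tested genes. The gene called higher was *Serpine2*, with 0.63 as given above and 0.18 (edgeR adjusted p = 0.0369), of which the second was lost without Spl-primed replicate 1, 3 or 4 or parental replicate 3 or 4 (adjusted p = 0.0536 to 0.109), and with both parental replicates left out (0.09, adjusted p = 0.389) or effective length offsets (adjusted p = 0.0712). *S100a10*, a plasminogen-binding partner of annexin A2, was lower by -0.31 (adjusted p = 0.00233) and -0.29 (adjusted p = 0.00555), and *Serpinb6a* by -0.35 (adjusted p = 0.000351) and -0.36 (adjusted p = 0.000463). *Anxa2* was called lower in Spl-primed cells alone (-0.15, adjusted p = 0.0393), with -0.06 (adjusted p = 0.342) in Tu-primed cells and 0.08 (adjusted p = 0.396) between them, and this call was lost without any 1 of 8 libraries, with effective length offsets (adjusted p = 0.116) and without parental replicates 3 and 4 (adjusted p = 0.163). *Lrp1*, a receptor that clears urokinase complexes, was not called (adjusted p = 0.151 to 0.605). The thrombin receptor gene *F2r* was lower by -0.13 (adjusted p = 0.0243) and -0.18 (adjusted p = 0.00575), and *F2rl1*, the second protease-activated receptor gene, was higher by 0.14 (adjusted p = 0.0323) and 0.13 (adjusted p = 0.0473). The *F2rl1* calls were lost without any 1 of 6 and of 11 libraries, and the *F2r* call in Tu-primed cells without Tu-primed replicate 2 or 3 or parental replicate 3 (adjusted p = 0.0537 to 0.0708). Without parental replicates 3 and 4 both *F2rl1* calls (adjusted p = 0.15 and 0.29) and the *F2r* call in Tu-primed cells (adjusted p = 0.133) were lost, and with effective length offsets both *F2rl1* calls (adjusted p = 0.0853 and 0.101). Of the 6 tested genes of selectins and their ligands, 2 were called higher and 1 lower in Tu-primed, and 1 higher and 3 lower in Spl-primed against parental cells. These are 50% and 66.7% of the 6, beside 59.2% and 48.2% of all tested genes. Besides *Sele* and *Cd24a*, given above, the called genes were *Gcnt1*, *Podxl* and *Glg1*, all 3 named after their values were seen. *Gcnt1*, which encodes an enzyme that builds branched glycans, was higher by 0.89 and 0.80 (edgeR adjusted p = 0.00167 and 0.00504). Its parental libraries ranged widely, from 2.16 to 5.27 CPM. *Podxl* was lower by -0.38 and -0.28 (adjusted p = 0.000338 and 0.00448). *Glg1* was called in Spl-primed cells at -0.43 (adjusted p = 0.00755). Its Spl-primed libraries ranged from 190 to 305 CPM (median 292), below the parental 337 to 382 CPM. Leaving out single libraries was not examined for these 3 genes.

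Many partners of the members were at or near 0. *F7* had a count of 0 in every library, and *F2*, *F10* and *Plg*, the genes of prothrombin, factor X and plasminogen, had at most 3, 1 and 2 counts in a library. *Tfpi2* had at most 4 counts and *Selplg*, the gene of the main P-selectin ligand, at most 5.33.

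**Figure D4:**
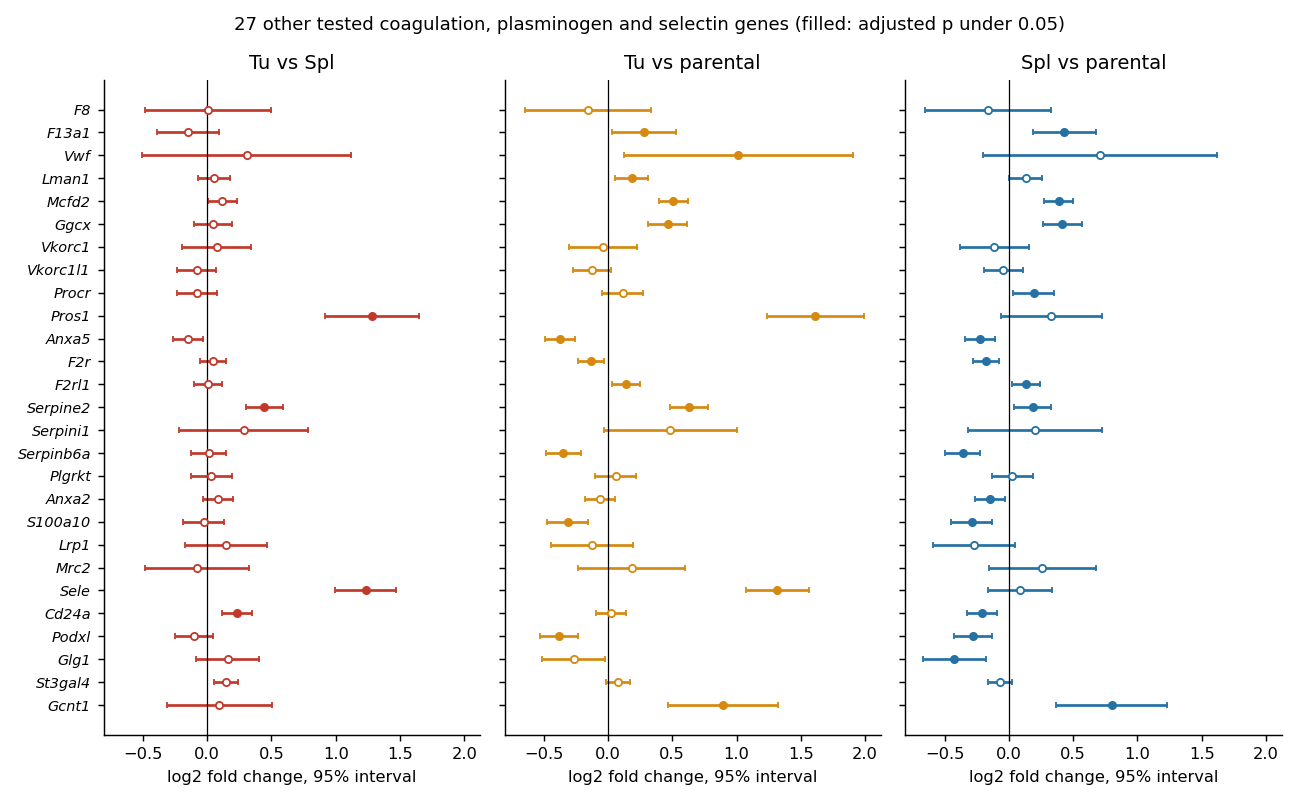
Log2 fold changes (x axes, edgeR with 95% intervals) of the 27 other tested genes (y axis) in the 3 comparisons, filled where the adjusted p is under 0.05. *Sele* (1.23) and *Pros1* (1.28) stand apart for Tu-primed against Spl-primed cells, where 4 of the 27 genes were called.

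Levels of different genes were compared in TPM, which divides by transcript length. *Plaur* (218 TPM on average) and *Plau* (75.5 TPM) led in Tu-primed cells, followed by *Selp* (18.6 TPM), and none of these 3 overlapped the next. Below them, *F3* (6.99 TPM), *Plat* (6.71 TPM), *F5* (3.86 TPM) and *Tfpi* (3.14 TPM) overlapped in each pair of neighbours in this order. In Spl-primed cells *F3* (7.80 TPM) stood above *Selp* (5.56 TPM) without overlap, *Selp* overlapped *Plat* (5.36 TPM), and *F5* (0.526 TPM) was below *Tfpi* (2.67 TPM) without overlap. In parental cells *Selp* (4.48 TPM), *F3* (3.93 TPM), *Plat* (2.97 TPM) and *Tfpi* (1.86 TPM) overlapped in each pair of neighbours in this order, and *F5* (0.293 TPM) was again below *Tfpi* without overlap. Among the 7 tested genes *Selp* thus ranked 3, 4 and 3, and *F5* ranked 6, 7 and 7 by mean level in Tu-primed, Spl-primed and parental cells. TPM values were not compared between groups, because the mitochondrial *mt-Atp8* alone took 10.2% to 15.0% of the TPM in parental and 4.52% to 7.05% in primed libraries, and the median tested gene was 0.49 (Tu-primed) and 0.42 (Spl-primed) higher than in parental cells on the log2 TPM scale.

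**Figure D5:**
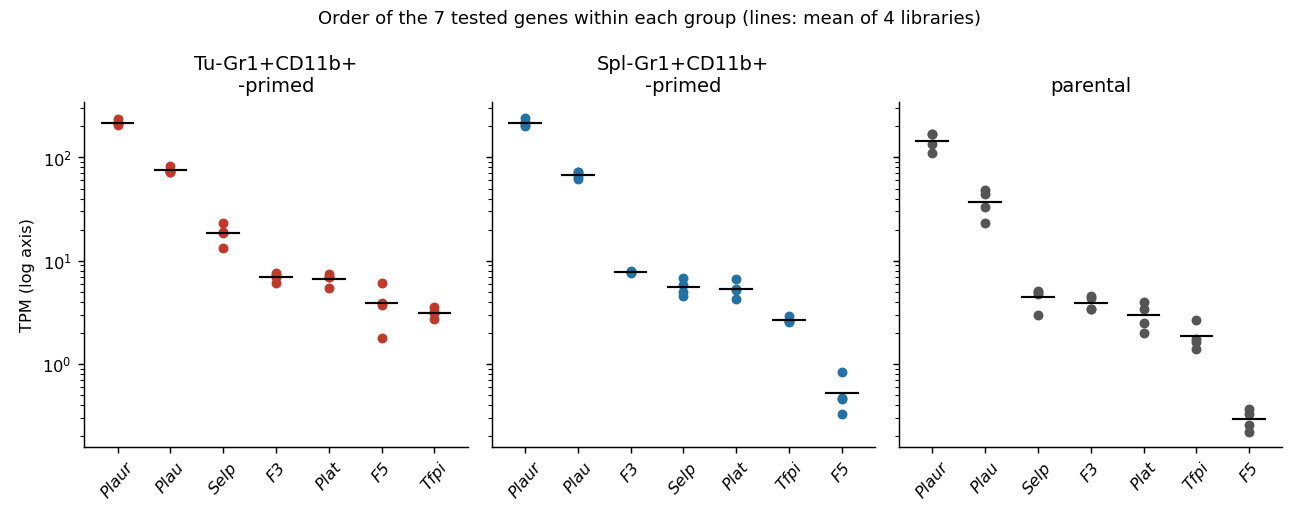
TPM (y axis, log scale) of the 7 tested genes in the 4 libraries of each group, ordered by their mean (black lines) along the x axis. *Plaur* (218, 217 and 145 TPM) and *Plau* lead in all groups, and *F5* is last in Spl-primed (0.526 TPM) and parental cells (0.293 TPM).

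*F5* has a single transcript in the tables, of 7430 bases. For *Selp*, *Plau*, *Plat*, *F3* and *Plaur*, 1 transcript held on average 97.7%, 99.95%, 99.5%, 94.0% and 88.4% of the gene's TPM. In Spl-primed cells the share of the main *Selp* transcript ranged from 73.0% to 100%, and in Tu-primed cells from 99.2% to 99.5%. The *Selp* difference between these groups was 1.66 to 1.93 on the log2 scale over all 27 alternatives, effective length offsets included.

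The genes whose log2 CPM followed a member most closely over the 12 libraries were named by Pearson's r, as a description without a test, since the 12 libraries form 3 groups that differ. For *F5* these were *Vwa5a* (r = 0.988), *Osmr* (r = 0.985) and *Nampt* (r = 0.985). *Osmr*, the oncostatin M receptor gene, was at 69.7 ± 13.9, 16.9 ± 2.34 and 12.2 ± 0.419 CPM (SD, n = 4) in Tu-primed, Spl-primed and parental cells. For *Selp* they were *Stom* (r = 0.987), *Riok3* (r = 0.985) and *Clu* (r = 0.982). *Tfpi* and *Plat* both had *Nmnat2* first (r = 0.952 and 0.967), *Plau* had *Pex5* (r = 0.985), *F3* had *Tmem106c* (r = 0.973) and *Plaur* had *B4galt7* (r = 0.921).

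P-selectin and factor V are also products of platelets, megakaryocytes and endothelium, so marker genes of these and other cells were summed. Of 11 platelet and megakaryocyte markers, 2 passed the filter, and the summed level was 1.33 to 2.16 CPM in Tu-primed, 0.726 to 1.96 in Spl-primed and 0.535 to 1.22 CPM in parental libraries. *Gp6*, *Clec1b* and *Treml1* were at 0 in all libraries, and *Pf4* had at most 1 count. Of the markers tested, *Itga2b* was at 0.975 ± 0.181, 0.664 ± 0.233 and 0.250 ± 0.147 CPM (SD, n = 4) in Tu-primed, Spl-primed and parental cells and was called higher in both primed groups than in parental cells (1.97, edgeR adjusted p = 0.000421, and 1.41, adjusted p = 0.00754). *Ppbp*, the other platelet marker tested, was at 0.494 ± 0.241, 0.615 ± 0.357 and 0.565 ± 0.270 CPM. It was called in no comparison (edgeR adjusted p = 0.763 to 0.866). The summed platelet markers of the Tu-primed and Spl-primed libraries overlapped.

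Of 11 endothelial markers, 3 passed, with summed levels of 66.1 to 71.2, 52.1 to 70.8 and 60.6 to 66.5 CPM in Tu-primed, Spl-primed and parental libraries, nearly all from *Flt1*. *Vwf*, another of the 3, was at 0.559 ± 0.119, 0.450 ± 0.252 and 0.277 ± 0.089 CPM (SD, n = 4) and was called higher in Tu-primed than in parental cells (1.01, edgeR adjusted p = 0.0482). *Flt1* (edgeR adjusted p = 0.289 to 0.983) and *Tie1* (adjusted p = 0.491 to 0.881) were called in no comparison. *Kdr*, *Emcn*, *Robo4* and *Cldn5* were at 0, and *Cdh5* had at most 6 counts. Of 14 granulocyte markers, 1 passed, and the sums of 1.67 to 3.92, 2.00 to 3.38 and 2.12 to 2.84 CPM overlapped in all groups. Of 9 monocyte and macrophage markers, 3 passed, with 22.9 to 24.2 CPM in Tu-primed libraries, above the 18.1 to 20.8 CPM of Spl-primed and the 17.4 to 21.1 CPM of parental libraries. Most of that sum came from *Cd14* (16.1, 12.9 and 14.1 CPM on average), which was called in no comparison (edgeR adjusted p = 0.0525 to 0.279). *Mrc1* was called higher in both primed groups than in parental cells (0.94 and 0.59, adjusted p = 0.000537 and 0.0165), but not between the primed groups (adjusted p = 0.249). *Cd68* was called in no comparison (edgeR adjusted p = 0.281 to 0.679). *Adgre1*, *C1qa*, *C1qb* and *Ccr2* were at 0. Of 6 fibroblast markers, only *Pdgfra* passed. It was at 86.9 ± 8.83 CPM in Tu-primed against 56.4 ± 10.2 CPM in Spl-primed cells (log2 fold change 0.62, edgeR adjusted p = 0.0053), while *Col3a1* and *Lum* were at 0 and *Col1a1* had at most 4 counts. All 8 epithelial markers passed, and their summed level was 1914 to 2349 CPM in Tu-primed, 2403 to 2593 in Spl-primed and 2673 to 3987 CPM in parental libraries. Most of that sum came from *Krt8* and *Krt18*, which were called lower in both primed groups than in parental cells (*Krt8* by -0.78 and -0.48, edgeR adjusted p = 4.49e-05 and 0.00273). *Krt7* was also called lower in both (-0.61 and -0.28, adjusted p = 0.000215 and 0.0361), and *Cdh1* in Tu-primed cells (-0.31, adjusted p = 0.00114). *Krt19* and *Krt14* were not called. *Cldn4* was called higher in both (0.41 and 0.39, adjusted p = 0.00159 and 0.00322) and *Epcam* in Spl-primed cells (0.30, adjusted p = 0.00573). The part of any of these cell types in the *F5* and *Selp* differences was not tested.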

How the data were processed

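RNA of 12 samples of 4T1 cells, lysed in the well, was sequenced from stranded TruSeq libraries. According to the submitters' processing notes, the authors used FastQC, Trimmomatic 0.39 and Salmon 1.4.0 with GRCm38 (mm10). They deposited, for each library, Salmon's estimated counts, TPM and effective length per transcript, and a normalized table that was not used here. Of 117081 transcripts, 116021 were matched to GENCODE M21. The deposited estimated counts were summed by gene and rounded. Per the deposited tables, TPM was scaled to the transcripts of each library, and it was used here only to compare genes within a group. Totals ranged from 24566183 to 31637755 counts, so that 3 counts, the upper limit for a count of 0, correspond to 0.0941 to 0.126 CPM. Genes were kept by edgeR's filterByExpr (12555 genes).

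One model with group as its term was fitted to all 12 libraries with edgeR 4.0.16 (TMM factors, quasi-likelihood test, R 4.3.3), and p-values were adjusted over all tested genes by the Benjamini-Hochberg method. Figures were drawn with matplotlib 3.10.9 in Python 3.11.15. The fitting code was tested on simulated data. Alternatives included DESeq2 1.42.0, limma 3.58.1, other filters and scalings, effective length offsets, a replicate block and leaving out each library. Named genes were the 9 members, the neighbours within 250 kb, the 5 genes with the smallest p of the list of related genes in each comparison, their direct partners and the 3 genes most correlated with each member. A few genes of these lists and of the neighbourhood are not reported here. The members, lists, motifs and tests were chosen with earlier results of these data known.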

Additional observations from a re-analysis of the deposited data

How the results depend on the processing

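The calls of *F5* and *Selp* in both comparisons of Tu-primed cells were unchanged under the 27 alternatives. Of the members' results under an alternative, 533 kept their side of the threshold and direction, 32 lost a call, 1 gained one and 1 reversed. Of those of the other genes examined gene by gene, 1221 kept both, 134 lost a call and 22 reversed. Leaving out 1 library gave 2 to 2 (Tu-primed against Spl-primed), 6 to 6 (Tu-primed against parental) and 3 to 4 (Spl-primed against parental) members called, and 3 to 5, 11 to 16 and 11 to 14 of the related genes. With a replicate block, 2, 6 and 3 members and 4, 13 and 11 related genes were called. The shares of all tested genes called are given for the main test only. Counts under an alternative, here and in the next paragraph, can thus not be set against such a share. In deviations from the group means, same-numbered Tu-primed and parental libraries correlated between 0.0839 and 0.148. For replicates 1 to 3, the same-numbered parental library was the best partner of the Tu-primed one. In the other comparisons the values lay between -0.164 and 0.0721. The labels give the numbers no meaning, and they were not taken as a pairing. Whether same-numbered Tu-primed and parental libraries share an origin was not tested.

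Requiring an absolute log2 fold change over 1 left 2 members against parental cells in Tu-primed and 0 in Spl-primed cells, and 2, 3 and 0 related genes in the 3 comparisons. An adjusted p under 0.01 left 2 members in Spl-primed against parental cells. Without parental replicates 3 and 4, 2 members and 9 related genes were called in Spl-primed cells. Alternatives with parental replicates left out or with offsets and block together were chosen after seeing the data, and the cause of these shifts was not tested beyond their construction.

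No reversed value was called in the main test. *Ggcx*, Tu-primed against Spl-primed, became -0.012 with effective length offsets and -0.010 with offsets and block, and *Lrp1* became -0.18 and -0.17. *F2rl1* in this comparison became -0.00037 with upper quartile scaling and -0.00016 with offsets, and *Scyl3* -0.0075 with protein-coding transcripts alone. Without parental replicates 3 and 4, *Sele* became -0.052 and *Atp1b1* -0.094 in Spl-primed against parental cells, where *Lrp1* became 0.046 with offsets and 0.041 with offsets and block.

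Over the fits that left out 1 library each, the sign changed between Tu-primed and Spl-primed cells for *Plaur* (-0.131 to 0.0288), *Serpinb6a* (-0.0287 to 0.0764), *F2rl1* (-0.00675 to 0.0205), *S100a10* (-0.0624 to 0.0701), *Procr* (-0.120 to 0.0165) and *Lrp1* (-0.0128 to 0.235). It changed for *Cd24a* in Tu-primed (-0.00424 to 0.0664) and *Atp1b1* in Spl-primed against parental cells (-0.0127 to 0.144). Low counts limit the precision for *Serpinb2* and most marker genes.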
